A study of Homo sapiens with 6 samples.

Results

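The 10 genes described here encode secreted products of goblet and Paneth cells and the factors that make them: the transcription factors ATOH1 and SPDEF, the folding proteins AGR2 and AGR3, the antimicrobial and lectin proteins LYZ, ITLN1, ZG16 and REG4, and the trefoil peptides TFF1 and TFF3. They were chosen by name, with earlier results of these data known. Every probe set whose annotation gave exactly 1 symbol, that of a listed gene, was read. All 10 genes were found, with 18 of the 41091 probe sets that carry a single symbol, and they are 10 of 19775 genes tested. Their RNA was measured in DLD-1, a human colon cancer cell line, on 6 oligonucleotide microarrays. Each group of 3 arrays is a subclone of that line, the first labelled DLD-1Δα-Cat and the second DLD-1α-Cat. Untreated cells of both had spent 96 h embedded in type I collagen at 1 mg/ml, the main fibre of connective tissue. The labels do not say what Δα-Cat stands for, how either subclone was obtained, or whether replicates are separate cultures. The p-values therefore cover the spread between these 6 samples alone, which may be technical.

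The lining of the intestine renews itself from stem cells, and daughter cells that switch on ATOH1 take the secretory path. SPDEF acts after ATOH1 in the maturation of goblet cells, which make mucus, and of Paneth cells, which release antimicrobial proteins at the base of the small intestinal crypt. Mucus proteins and trefoil peptides carry many disulfide bonds, which are formed in the endoplasmic reticulum with the help of protein disulfide isomerases, the family to which AGR2 and AGR3 belong.

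AGR2 and AGR3 lie side by side on chromosome 7, with no other protein-coding gene between them in RefSeq order. Because AGR3 was called and its neighbour AGR2 was not, the RefSeq windows around their annotated starts (assembly GRCh38.p14, minus strand, from 250 bases before to 50 bases after the start) are printed for comparison, at chr7:16804950-16805249 for AGR2 and chr7:16881934-16882233 for AGR3. Capitals mark every match, on either strand, to 4 short motifs: the TATA box TATAAA, the forkhead motif TGTTTAC, the E-box CAGCTG and the Ets-type motif GGATGT.
AGR2: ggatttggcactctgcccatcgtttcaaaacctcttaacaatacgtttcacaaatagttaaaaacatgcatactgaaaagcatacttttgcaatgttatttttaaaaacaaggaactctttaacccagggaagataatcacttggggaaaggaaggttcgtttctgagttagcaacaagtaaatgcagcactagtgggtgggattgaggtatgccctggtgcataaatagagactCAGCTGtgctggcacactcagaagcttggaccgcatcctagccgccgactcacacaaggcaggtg
AGR3: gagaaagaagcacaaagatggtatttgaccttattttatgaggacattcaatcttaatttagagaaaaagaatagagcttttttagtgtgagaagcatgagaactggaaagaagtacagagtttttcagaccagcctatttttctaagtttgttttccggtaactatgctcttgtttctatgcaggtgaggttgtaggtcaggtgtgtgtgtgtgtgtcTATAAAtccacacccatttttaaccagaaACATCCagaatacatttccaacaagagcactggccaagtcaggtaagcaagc
The AGR2 window held the E-box, at bases 236 to 241 of the 300. The AGR3 window held TATAAA at bases 220 to 225 and GGATGT on the opposite strand at bases 249 to 254. Windows were found for 6 of the 10 genes (also for ITLN1, SPDEF, ATOH1 and REG4, but not for LYZ, ZG16, TFF1 and TFF3). TATAAA occurred in 3 of these 6, in AGR3, in REG4 at bases 220 to 225 and in ITLN1 at bases 128 to 133, and in 11.5% of all 35116 windows of that length. CAGCTG was found in 17.9% of all windows, GGATGT in 10.1% and TGTTTAC in 3.42%, the last in 0 of the 6. These matches are letters in a window, not bound sites.

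All values are log2 intensities, and each difference is DLD-1Δα-Cat minus DLD-1α-Cat. A gene was called when its p from limma's moderated test, adjusted by the Benjamini-Hochberg method over all 19775 genes, was under 0.05. Each gene is represented by its brightest probe set unless another is named. Of the 10 secretory genes 4 were called, against 5.52% of all genes tested. Of these 3 rose (AGR3, LYZ and ITLN1), against 3.84% of all genes, and 1 fell (ZG16), against 1.67%. The other 6 were not called. In 9 of the 10 genes no array of one subclone reached into the range of the other, against 27.2% of all genes. The median difference of the 10 was 0.63, with 7 above 0 and 3 below, and that of all genes was -0.030. Because the 10 were chosen with earlier results of these data known, these shares describe them and are no test of them. In RNA of a whole culture, fewer cells of a kind and less RNA per cell cannot be told apart.

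**Figure D1:**
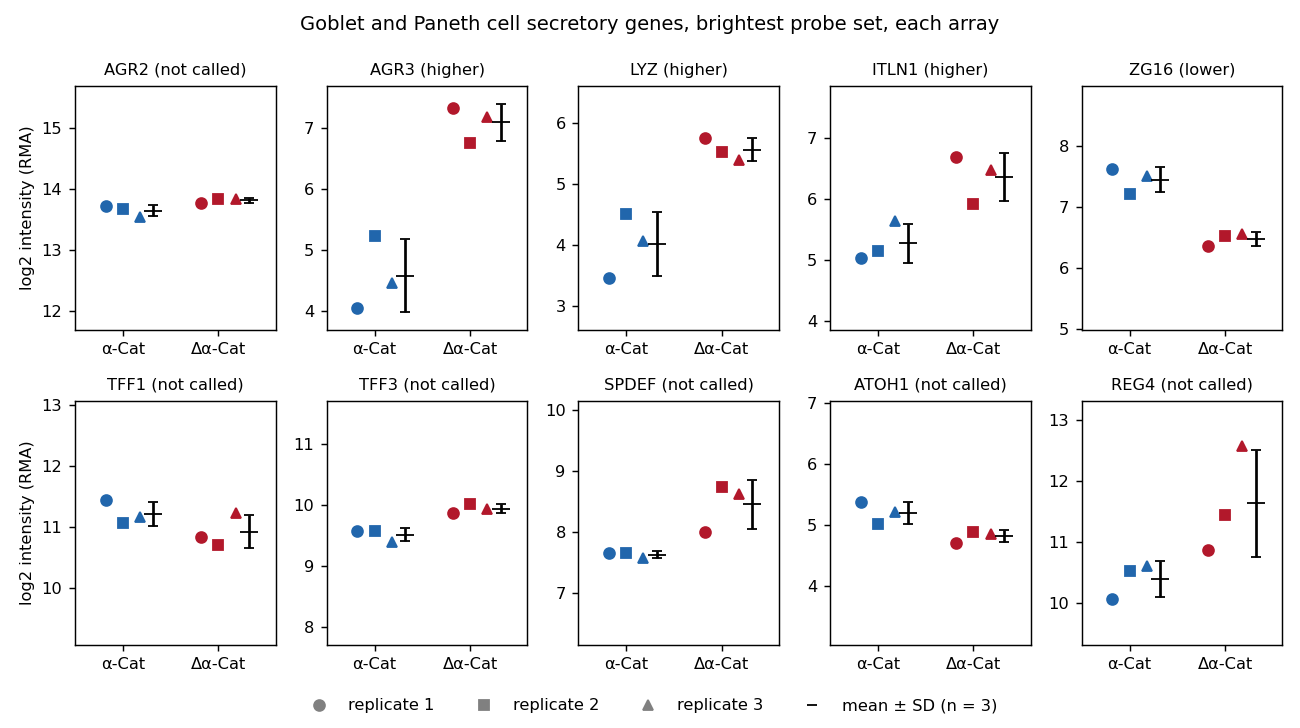
Log2 intensity (RMA) of the brightest probe set of each of the 10 genes on every array, with DLD-1α-Cat in blue and DLD-1Δα-Cat in red, a marker shape per replicate number and the mean ± SD (n = 3) in black; each panel spans the same number of log2 units. AGR3, LYZ and ITLN1 sit higher and ZG16 lower in DLD-1Δα-Cat, and only in TFF1 do the arrays of the subclones overlap.

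The transcription factors did not pass at the level of genes. ATOH1, the basic helix-loop-helix factor that commits cells to the secretory path, read 4.70, 4.89 and 4.86 on replicates 1, 2 and 3 of DLD-1Δα-Cat and 5.38, 5.02 and 5.21 on those of DLD-1α-Cat. The 3 DLD-1Δα-Cat arrays lay below the others without overlap, but all 6 values were under 6.12, the median of all probe sets, in a range where signal and background cannot be separated without detection calls. The difference was -0.39 (SE 0.12, limma adjusted p = 0.127).

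SPDEF, the Ets factor of goblet and Paneth cell maturation, read 8.00, 8.75 and 8.63 in DLD-1Δα-Cat and 7.67, 7.67 and 7.57 in DLD-1α-Cat. Every DLD-1Δα-Cat array was above every DLD-1α-Cat array, and replicate 1 of DLD-1Δα-Cat was the nearest to them. Its difference of 0.83 (SE 0.19) had a limma adjusted p of 0.0534, and the 95% confidence interval ran from 0.38 to 1.27. Without replicate 1 of DLD-1Δα-Cat the difference was 1.05 (limma adjusted p = 0.00854), so SPDEF then passed, whereas without any other array it did not (0.0828 to 0.173).

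SPDEF had 5 probe sets, all of the _x_at kind, a suffix that marks sets with probes that can match other transcripts. All 5 lay above 0, between 0.29 and 1.08, and 4 of them had arrays without overlap. When each of 54613 probe sets was tested on its own, 3 of the 18 sets of the 10 genes were called higher, against 1.72% of all sets, and 1 lower, against 0.729%; in all, 2.45% were called. Of the 18 sets 15 had groups without overlap, against 22.1% of all sets. In that fit 1 set of SPDEF was called, not the brightest. It read 8.30, 8.78 and 8.63 in DLD-1Δα-Cat against 7.47, 7.33 and 7.65 in DLD-1α-Cat (difference 1.08, SE 0.16, limma adjusted p = 0.0180) and kept its call in 2 of 6 fits that left out an array. This set and the brightest one differ little in signal, and the choice between them decides whether SPDEF is called. The mean of the 5 sets was 7.84 ± 0.22 for DLD-1Δα-Cat against 7.20 ± 0.10 (SD, n = 3 each), and an exact permutation test, two-sided, gave p = 0.1, the smallest that 3 against 3 arrays allow.

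**Figure D2:**
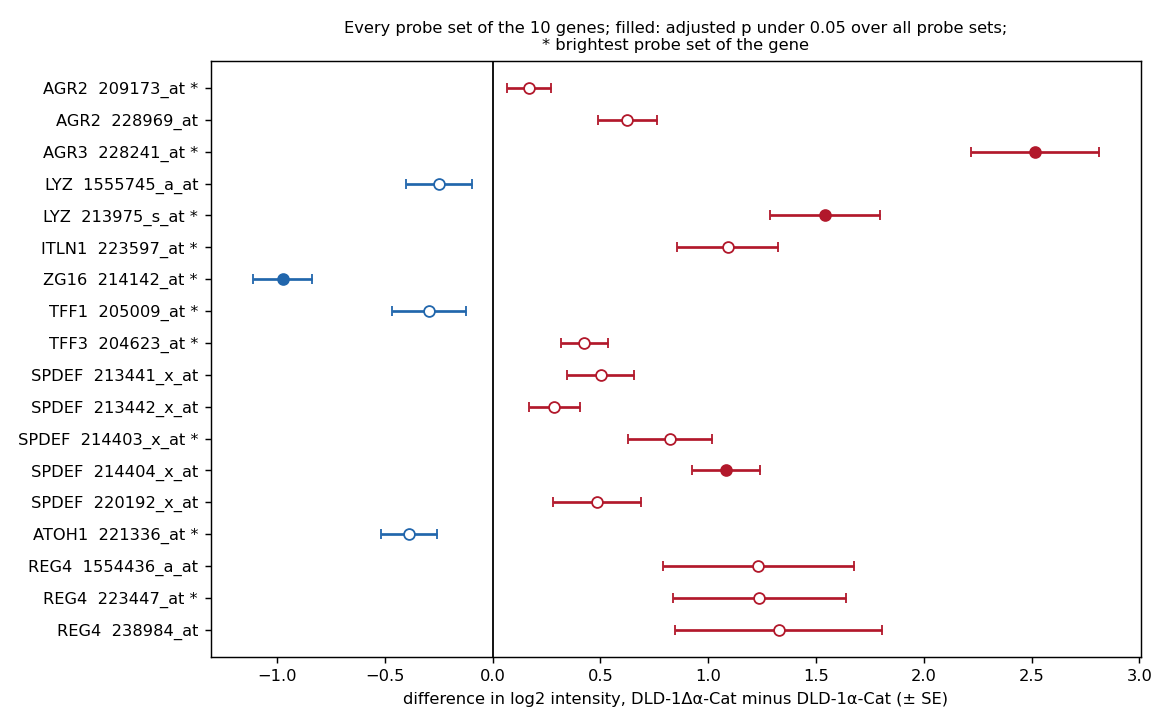
Difference in log2 intensity, DLD-1Δα-Cat minus DLD-1α-Cat, with its SE for each of the 18 probe sets of the 10 genes; filled points passed in the fit of every probe set, and a star marks the brightest set of a gene. The 5 sets of SPDEF and the 3 of REG4 all lie above 0, while the 2 sets of LYZ lie on opposite sides of it.

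Of the neighbours AGR2 and AGR3, only AGR3 was called. AGR2, a disulfide isomerase of the endoplasmic reticulum that goblet cells need to make mucin, read 13.78, 13.83 and 13.84 in DLD-1Δα-Cat and 13.72, 13.68 and 13.55 in DLD-1α-Cat. Its arrays did not overlap, yet the gap between the groups was small and it did not pass (difference 0.17, SE 0.094, limma adjusted p = 0.357). The 95% confidence interval of that difference ran from -0.053 to 0.39. The mean of this set was above that of 99.2% of all probe sets, near the top of the scale. Whether its signal was compressed there was not tested. Its other probe set read 12.04, 12.32 and 12.14 against 11.58, 11.71 and 11.34, a difference of 0.62 (SE 0.14) with limma adjusted p = 0.0695 in the fit of every probe set. Neither set of AGR2 was called in any of the 6 runs without an array.

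AGR3, the close relative of AGR2, read 7.34, 6.77 and 7.20 in DLD-1Δα-Cat and 4.06, 5.23 and 4.47 in DLD-1α-Cat. All 3 DLD-1Δα-Cat arrays stood above the median of all probe sets and all 3 DLD-1α-Cat arrays below it. It rose by 2.51 (SE 0.29, limma adjusted p = 0.00453) on its single probe set. No fold is given for AGR3, LYZ or ITLN1, because the DLD-1α-Cat arrays of each lay in the dim range where background and signal cannot be separated. AGR3 passed in all 6 runs without an array, at differences from 2.25 to 2.84. In the fit of every probe set it kept its call in 5 of 6 such runs (limma adjusted p up to 0.0594). The within-array difference between AGR3 and the brightest AGR2 set was 2.35 higher in DLD-1Δα-Cat, and 1.89 higher with the other AGR2 set. The arrays did not overlap in either, and each gave p = 0.1 in an exact permutation test, two-sided, the smallest possible here, so this design cannot take the difference between the genes past 0.05.

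The flanking genes on chromosome 7 gave the following values. TSPAN13, a tetraspanin next to AGR2, differed by 0.0019 (limma adjusted p = 0.993). AHR, the dioxin receptor next to AGR3, rose from 11.80 ± 0.074 to 12.24 ± 0.020 (SD, n = 3 each; difference 0.43, limma adjusted p = 0.0396). AHR passed only in the run without replicate 2 of DLD-1α-Cat (0.0449) among the 6 runs without an array, and in the other 5 its limma adjusted p reached 0.155. SNX13, the tested gene after AHR, was not called but differed by 0.56 (SE 0.13, limma adjusted p = 0.0610), without overlap. BZW2, the tested gene beyond TSPAN13, differed by -0.080 (limma adjusted p = 0.631).

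**Figure D3:**
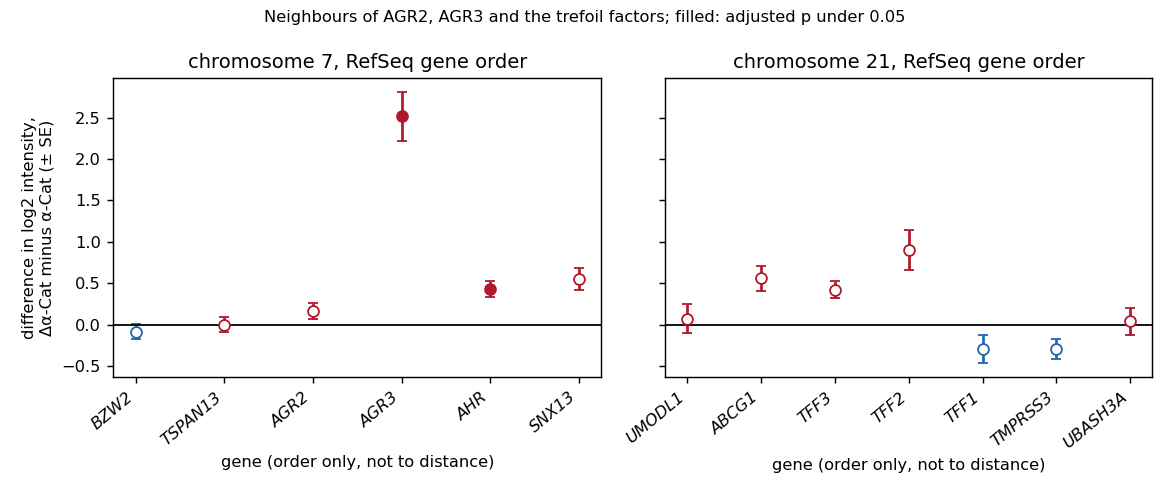
Difference in log2 intensity, DLD-1Δα-Cat minus DLD-1α-Cat, with its SE for genes in RefSeq order around AGR2 and AGR3 (chromosome 7) and around the trefoil factors (chromosome 21); spacing is by order, not distance, and filled points passed. AGR3 at 2.51 stands above its neighbours AGR2 at 0.17 (0.62 on its other probe set, not drawn) and AHR at 0.43. TFF3 and TFF2 lie above 0 while TFF1 lies below.

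Of the antimicrobial and lectin genes 2 rose and 1 fell. LYZ encodes lysozyme, which cuts bacterial cell walls and fills Paneth cell granules. It read 5.76, 5.53 and 5.40 in DLD-1Δα-Cat and 3.47, 4.52 and 4.08 in DLD-1α-Cat. The groups were separate, with replicate 2 the highest array of DLD-1α-Cat, and all 6 values lay below the median of all probe sets. LYZ rose by 1.54 (SE 0.25, limma adjusted p = 0.0167). Without replicate 1 or 2 of DLD-1Δα-Cat, or replicate 3 of DLD-1α-Cat, it did not pass (limma adjusted p = 0.0572, 0.0588 and 0.0755).

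The second probe set of LYZ did not show the rise. It read 4.32, 4.25 and 4.28 in DLD-1Δα-Cat and 4.80, 4.25 and 4.54 in DLD-1α-Cat, so the groups met, and its difference was -0.25 (limma adjusted p = 0.477 over all probe sets). The within-array difference between the 2 sets was 1.28 ± 0.16 for DLD-1Δα-Cat against -0.51 ± 0.81 (SD over 3 arrays), with a two-sided exact permutation p of 0.1, the smallest possible. In the fit of every probe set, the brightest set, which carries the rise, had limma adjusted p = 0.0280, and 0.0603 with the replicate number as a block. It kept its call in that fit in only 2 of 6 runs without an array (limma adjusted p up to 0.120).

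LYZ is also a gene of monocytes and macrophages, so their markers were read beside it. Of 13 measured leukocyte and macrophage markers 0 rose and 1 fell by limma, and 0 were higher and 4 lower at an unadjusted p under 0.05, which 11.8% and 8.98% of all genes reached in these directions. The pan-leukocyte gene PTPRC read 3.34 ± 0.14 for DLD-1Δα-Cat against 3.67 ± 0.25 (SD, n = 3 each), near the bottom of the scale. CD14, a monocyte receptor for bacterial lipopolysaccharide, fell by 1.17 on the log2 scale (limma adjusted p = 0.00517). The markers' summed linear intensity was 522 to 570 on the DLD-1Δα-Cat arrays and 664 to 723 on the DLD-1α-Cat arrays. Without CD14, left out after its value was seen, the sum of the other 12 was 437 to 460 against 440.2 to 538, so the groups overlapped. A lower sum was not particular to leukocyte markers, since that of 10 endothelial markers was 545 to 602 against 637 to 726. Fibroblast sums overlapped (365 to 399 against 354 to 535). Those of enteroendocrine markers were higher in DLD-1Δα-Cat (289 to 330 against 262 to 272). Both groups are subclones of the DLD-1 line, and whether RNA of other cells had a part in the LYZ values was not tested.

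ITLN1, intelectin-1, is a secreted lectin of goblet and Paneth cells that binds sugars found on microbes. It read 6.68, 5.91 and 6.47 in DLD-1Δα-Cat and 5.02, 5.14 and 5.63 in DLD-1α-Cat. The closest arrays, replicate 2 of DLD-1Δα-Cat and replicate 3 of DLD-1α-Cat, were still separate. ITLN1 rose by 1.09 (SE 0.23, limma adjusted p = 0.0416). This call was near the threshold: the limma adjusted p was 0.0298 without replicate 2 of DLD-1Δα-Cat but 0.0620 to 0.128 without each of the other 5 arrays, 0.0667 with every probe set tested and 0.0567 with array weights.

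ZG16 is a lectin of goblet cell mucus that binds the cell wall of Gram-positive bacteria. It read 6.35, 6.51 and 6.55 in DLD-1Δα-Cat and 7.62, 7.21 and 7.50 in DLD-1α-Cat. Every DLD-1Δα-Cat array was below every DLD-1α-Cat array, and all 6 stood above the median of all probe sets. ZG16 fell by 0.97 on the log2 scale (SE 0.13, limma adjusted p = 0.00785), or 1.96-fold, and it passed in all 6 runs without an array (0.00662 to 0.0469). In the fit of every probe set it was called (limma adjusted p = 0.0160) but kept its call in only 2 of 6 such runs (up to 0.0836). Close by on chromosome 16, QPRT, an enzyme of NAD synthesis, fell from 12.27 ± 0.062 to 10.23 ± 0.047 (SD, n = 3 each; limma adjusted p = 6.01e-05). The tested genes nearest to ZG16 on either side, C16orf54 and KIF22, differed by 0.32 and -0.42 (limma adjusted p = 0.317 and 0.155).

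REG4, a secreted lectin-like protein of the REG family made by deep crypt secretory cells of the colon, was not called although its difference exceeded 2-fold. It read 10.87, 11.44 and 12.58 in DLD-1Δα-Cat and 10.06, 10.52 and 10.60 in DLD-1α-Cat. The groups did not overlap, but replicate 3 of DLD-1Δα-Cat stood well above the other 2 of its group. The difference was 1.24 (SE 0.40, limma adjusted p = 0.132), with a 95% confidence interval from 0.30 to 2.17. Without replicate 3 of DLD-1Δα-Cat it was 0.76 (limma adjusted p = 0.171), and without replicate 1 it was 1.62 (0.0656).

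The further probe sets of REG4 showed the same spread. One set read 8.49, 8.65 and 10.25 in DLD-1Δα-Cat against 7.57, 7.95 and 8.17 in DLD-1α-Cat (difference 1.23, SE 0.44). The other read 5.50, 6.32 and 7.63 against 5.14, 4.88 and 5.44 (difference 1.33, SE 0.48). Replicate 3 of DLD-1Δα-Cat was the highest array on all 3 sets, and none of the 3 passed (limma adjusted p = 0.188 to 0.239 over all probe sets). On chromosome 1 the tested gene next to REG4 is PHGDH, an enzyme of serine synthesis, which differed by 0.39 (limma adjusted p = 0.133). The gene after it, the zinc finger gene ZNF697, fell by 0.60 on the log2 scale (limma adjusted p = 0.0463) but did not pass in any of the 6 runs without an array (0.0555 to 0.157).

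The trefoil peptides are small, disulfide-rich proteins secreted with mucus, and the 3 genes for them follow each other on chromosome 21 in the order TFF3, TFF2, TFF1. TFF3, the trefoil peptide of intestinal goblet cells, read 9.87, 10.02 and 9.93 in DLD-1Δα-Cat and 9.57, 9.57 and 9.40 in DLD-1α-Cat. The arrays were tightly grouped and separate, with a difference of 0.43 (SE 0.10, limma adjusted p = 0.0562) and a 95% confidence interval from 0.19 to 0.66. TFF3 passed in 4 of 16 alternatives, in none of the 6 runs without an array.

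TFF1, the trefoil peptide best known from the stomach, read 10.83, 10.70 and 11.23 in DLD-1Δα-Cat and 11.43, 11.05 and 11.15 in DLD-1α-Cat. It was the only gene of the 10 whose groups overlapped, through replicate 3 of DLD-1Δα-Cat. The difference was -0.29 (SE 0.17, limma adjusted p = 0.360), with a 95% confidence interval from -0.68 to 0.096. TFF2, the gene between them and no member of the 10, read 7.95, 7.83 and 8.59 against 6.98, 7.10 and 7.58. Its groups were separate (difference 0.90, SE 0.24, limma adjusted p = 0.0759), and with the replicate number as a block it passed (0.0154). The within-array difference between TFF3 and TFF1 was 0.72 higher in DLD-1Δα-Cat, without overlap (exact permutation p = 0.1, two-sided, the smallest possible). The outer neighbours ABCG1, a lipid transporter next to TFF3, and TMPRSS3, a membrane serine protease next to TFF1, differed by 0.56 and -0.29 (limma adjusted p = 0.0796 and 0.223). In all, 33 genes that are no members lay nearest to the 10, and 1 of them rose (AHR) and 2 fell (QPRT and ZNF697), against 3.84% and 1.67% of all genes.

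Genes related to the secretory programme were read in 4 lists that hold none of the 10. The lists are not limited to genes that promote this programme or mark 1 cell type. The regulators include HES1, POU2F3 and SPIB, and the Paneth list includes KIT, PIGR, CD24 and DMBT1. Over all genes 3.84% rose and 1.67% fell, and 11.8% were higher and 8.98% lower at an unadjusted p under 0.05. Among 15 lineage regulators 0 rose and 1 fell by limma, with 3 higher and 3 lower at an unadjusted p under 0.05, and the median difference was -0.010. FOXA2, a forkhead factor of gut endoderm, fell from 7.50 ± 0.22 to 6.72 ± 0.12 (SD, n = 3 each; difference -0.79, limma adjusted p = 0.0201). It passed on 1 of its 3 probe sets, and did not pass without replicate 2 or 3 of DLD-1Δα-Cat or replicate 3 of DLD-1α-Cat (up to 0.0870). With the replicate number as a block 3 regulators were called.

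Among 23 goblet cell products and mucus processing genes 0 rose and 1 fell by limma, against 2 higher and 3 lower at an unadjusted p under 0.05, with a median of -0.080. ST6GALNAC1, the sialyltransferase that caps mucin sugars with sialic acid, read 6.73, 7.08 and 6.23 in DLD-1Δα-Cat and 9.01, 9.09 and 8.95 in DLD-1α-Cat. The groups lay far apart, and it fell by 2.33 on the log2 scale (SE 0.20, limma adjusted p = 0.00130), or 5.04-fold. ST6GALNAC1 passed in all 6 runs without an array and with the β-actin ratio described below as a covariate (0.0458). The gel-forming mucin gene MUC2, the main component of intestinal mucus, read 4.90 against 5.05 (limma adjusted p = 0.665), below the median of all probe sets. With the replicate number as a block 2 genes of this list were called.

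Among 17 measured Paneth cell genes 0 passed by limma (1 was higher and 3 were lower at an unadjusted p under 0.05, and 0 passed without moderation), and the median was -0.092. CD24, a surface glycoprotein and the member with the highest mean, differed by 0.18 (limma adjusted p = 0.314). PLA2G2A, the antibacterial phospholipase of Paneth granules, differed by 0.46 with limma adjusted p = 0.0516. The defensin genes DEFA5 and DEFA6, which define Paneth cells, read 4.74 and 3.97 in DLD-1Δα-Cat and 4.72 and 4.29 in DLD-1α-Cat, all in the dim range. Of 18 measured disulfide isomerases and other folding genes of the endoplasmic reticulum 0 rose and 1 fell, with 0 higher and 1 lower at an unadjusted p under 0.05 and a median of -0.071. The 1 was ERO1B, an oxidase that recharges disulfide isomerases, which fell by 0.64 on the log2 scale (SE 0.11, limma adjusted p = 0.0193) and did not pass without any 1 of the 3 DLD-1Δα-Cat arrays (up to 0.0861). TXNDC12, a further relative of AGR2 and AGR3, differed by -0.071 (limma adjusted p = 0.718).

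**Figure D4:**
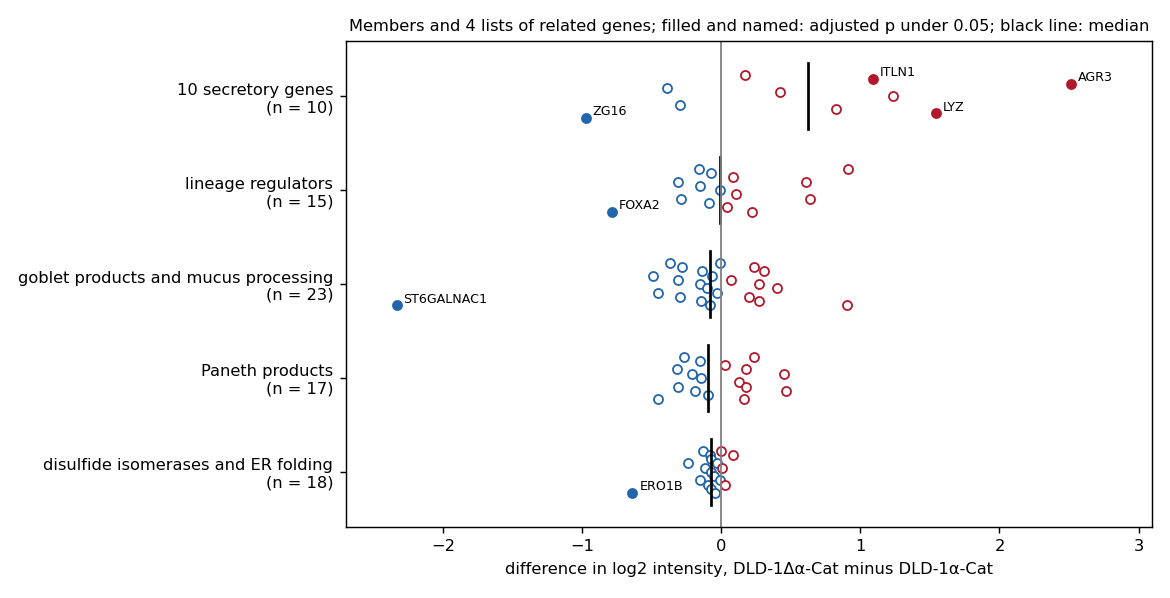
Difference in log2 intensity, DLD-1Δα-Cat minus DLD-1α-Cat, for the 10 genes and 4 lists of related genes; each point is a gene, filled and named where it passed, and the black line is the median of the list. The median of the 10 is 0.63, and those of the lists lie between -0.092 and -0.010.

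By the profile over the 6 arrays, each centred on its own mean, the genes nearest to AGR3, the called member with the largest difference, were HOXC4, a homeobox gene (root mean square distance 0.23 log2 units), CYP4X1, a cytochrome P450 (0.30), and the noncoding RNA gene GAU1 (0.31), among 19774 compared. Their differences were 2.49, 2.88 and 2.44, and their likeness to AGR3 is what chose them. HOXC4 read 9.03 to 9.09 in DLD-1Δα-Cat and 6.19 to 6.95 in DLD-1α-Cat.

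The samples as a whole gave these checks. CTNNA1, which encodes αE-catenin, was read on the brightest of its 5 probe sets. It was lower in DLD-1Δα-Cat, at 11.23 against 12.75 (difference -1.52, limma adjusted p = 0.000838). As no label says that Δα-Cat refers to this gene, the value does not test the labels. The epithelial genes EPCAM and CDH1 stood at 13.41 and 13.46 in DLD-1Δα-Cat and at 13.46 and 13.41 in DLD-1α-Cat, and 0 of 9 measured colon epithelial markers passed by limma (0 at an unadjusted p under 0.05). Of 10 fibroblast, 10 endothelial and 8 measured enteroendocrine markers 0 passed in any list, with 1 higher and 1 lower, 0 and 3, and 1 and 0 at an unadjusted p under 0.05. RNA quality was read from control probe sets for 2 genes, and the β-actin ratio moved with the groups while that of GAPDH did not separate them. For β-actin the log2 ratio of the 3′ set over the 5′ set was 5.16, 5.38 and 5.07 in DLD-1Δα-Cat and 4.82, 4.89 and 4.36 in DLD-1α-Cat (exact permutation p = 0.1, two-sided). For GAPDH it was 0.75 ± 0.067 against 0.66 ± 0.14 (SD over 3 arrays), with overlap (exact permutation p = 0.4, two-sided). With the β-actin ratio as a covariate 0 of the 10 genes passed by limma, 5 had an unadjusted p under 0.05, against 8.96% of all genes, and 84 genes passed in all. AGR3 then differed by 2.48 (SE 0.55, limma adjusted p = 0.216), LYZ by 1.51 (SE 0.47, 0.400), ITLN1 by 1.76 (SE 0.26, 0.0762) and ZG16 by -0.88 (SE 0.23, 0.301). Each of these SEs was larger than in the reported fit. Since the ratio itself separated the groups, RNA quality and subclone cannot be told apart in this fit. Without moderation of the variance 0 of the 10 passed and 8 had an unadjusted p under 0.05, against 18.0% of all genes.

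Across 16 alternatives all 10 genes kept their direction wherever they had a value. AGR3 passed in 13 of 15, ZG16 in 14 of 16, LYZ in 10 of 15 and ITLN1 in 6 of 15. Of the genes not called, SPDEF passed in 5 and TFF3 in 4 of 16, while AGR2, TFF1, ATOH1 and REG4 passed in 0.

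**Figure D5:**
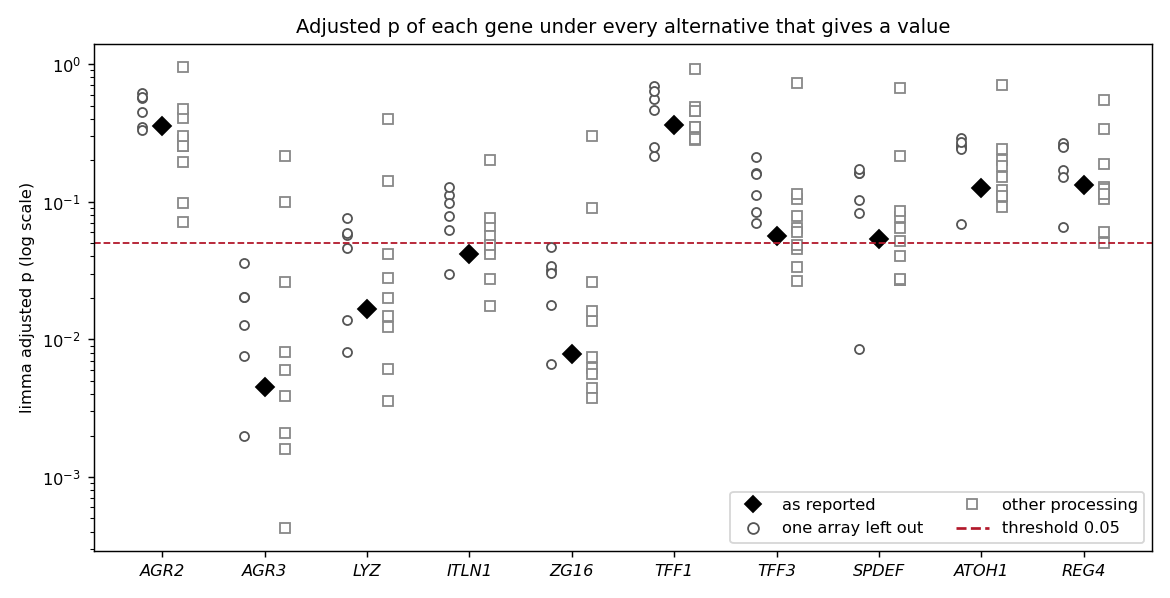
Limma adjusted p (log scale) of each of the 10 genes as reported (black diamonds), with each array left out (circles) and under the other processing alternatives (squares); the dashed line is the threshold of 0.05. All circles of AGR3 and ZG16 lie under the line, those of ITLN1, LYZ and SPDEF lie on both sides, and those of AGR2, TFF1, TFF3, ATOH1 and REG4 lie above it.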

How the data were processed

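Biotin-labelled material from the total RNA of 6 samples was measured on Affymetrix arrays with 54675 probe sets. Per the submitters' processing notes, which name RMA and Affymetrix Expression Console without a version, the authors made the deposited log2 values with RMA. That method subtracts background and gives all arrays the same distribution, so it hides a change shared by all RNA. The 6 array medians ranged from 6.12 to 6.15. Detection calls were not used here, and the number of arrays limits the precision.

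After removal of 62 control probe sets, 41091 carried 1 symbol in the platform annotation of 2016, 1801 several, and 11721 were not listed. Genes were taken at their brightest probe set by mean over the arrays and fitted in R 4.3.3 with limma 3.58.1 (two-sided, default lmFit and eBayes on both groups), checked on simulated data. Other probe sets come from a fit of all 54613. The members, lists and alternatives were chosen with earlier results of these data known. Named were the 10 genes, every passing gene of the lists and flanking genes, the member with the highest mean of a list without one, genes next to AGR2, AGR3 and the trefoil genes, and the 3 profiles nearest to AGR3. MUC2, TFF2 among the trefoil genes, PLA2G2A, DEFA5, DEFA6, TXNDC12, BZW2, SNX13, C16orf54, KIF22 and the marker genes were added as examples. HNF4A, CD68, ITLN2, PDIA5, TXNDC5, NEUROD1 and PCSK1 had no probe set with a single symbol and are not analysed here.

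Same-numbered arrays of the subclones deviated together from their group means (correlation over genes 0.225, 0.376 and 0.122, each above 0.1). The numbers may therefore mark pairs, but no label states it, and 3 arrays per group are too few to settle it. The reported fit and the exact tests have no block, and the fit with the block is an alternative. The smallest exact permutation p of 0.1 holds for unpaired arrays only. Alternatives were quantile normalization, centring on the values between the quartiles, leaving out dim probe sets (mean below 6.12), averaging the probe sets of a gene, every set tested, a variance trend with robust estimation, no moderation, array weights, the replicate number as a block, the β-actin ratio (3′ over 5′) as a covariate and leaving out each array.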

Additional observations from a re-analysis of the deposited data

How the results depend on the processing

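The direction of all 10 genes was the same under each alternative that gave a value; without dim probe sets AGR3, LYZ, ITLN1 and ATOH1 had none. As reported, 1091 genes were called, 3 of the 10 higher and 1 lower, and 1 lineage regulator, 1 goblet gene, 0 Paneth genes and 1 folding gene. Leaving out an array gave 442 to 1202 genes, 1 to 2 members higher, 1 lower in each run, 0 to 3 regulators, 1 goblet gene, 0 Paneth genes and 0 to 1 folding genes; over all probe sets it gave 0 to 3 member sets higher and 0 to 1 lower, against 3 and 1. A variance trend with robust estimation gave 1714 genes, 5 members higher, 3 regulators, 2 goblet and 3 Paneth genes. The mean of probe sets gave 5 members higher, 2 regulators, 1 Paneth and 0 folding genes. Array weights gave 3 regulators and 1 Paneth gene, and leaving out dim probe sets 1 Paneth gene. Every probe set tested gave 708 genes. With the replicate number as a block there were 3 regulators and 2 goblet genes; it changed no call among the 10 genes, but of their probe sets 2 were higher, without that of LYZ. Without moderation 115 genes were called, and with the β-actin ratio as a covariate 84; in both, 0 members were higher and 0 lower, with 0 regulators and 0 folding genes, and without moderation also 0 goblet genes. The causes were not tested. Detection could not be judged from these values, so differences of AGR3, LYZ and ITLN1 against a dim group may understate or miss changes near the bottom of the scale.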
